A study of Oryza sativa with 8 samples.

Results

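Open chromatin of 93-11 seedlings under heat stress (93-11 HS) was compared with that of 93-11 seedlings under normal conditions (93-11 Normal), in 2 ATAC-seq peak lists each. 93-11 is an indica rice. The 4 libraries were picked from the 8 of the series by the cultivar and condition in their titles, and only peaks on the 12 chromosomes were used, which left 109840 of the 243803 such peaks of all 8 lists. The other 4 libraries are from Nipponbare (Nip), a japonica rice, and enter only the last comparison. All groups were grown to an age of 3 weeks in culture solution, in 10 h of light at 800 μmol m-2 s-1 and 14 h of dark. The HS seedlings of both cultivars then spent 36 h at 45 °C, with relative humidity above 80% and light of 60 to 80 μmol m-2 s-1. What light and humidity the Normal seedlings had meanwhile was not stated, so the effects of heat, light and humidity cannot be told apart. Nuclei came from whole aerial parts, so an open site in fewer cells and a site less open in each cell cannot be told apart. The study's methods describe the 2 libraries of a group as biological replicates.

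In ATAC-seq, the Tn5 transposase inserts adapters where DNA is not tightly packed on nucleosomes, and stretches that collect many fragments are called as peaks. In plants such stretches lie mostly at promoters and other regulatory DNA. They are dense on gene-rich chromosome arms and rare in the repeat-rich DNA around centromeres. The width of a peak is the length of DNA over which the signal passes the threshold of peak calling against the background.

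The lists held 24940 and 22684 peaks in 93-11 HS replicates 1 and 2, against 31584 and 30632 in 93-11 Normal replicates 1 and 2. Each peak carries 1 value, read as a −log10 p against the background of its own library, and this value was used to rank peaks within a list. Sequencing depth is not recorded. In its place stands a background rate recovered from the values, which gives the fragments that cover a base by chance. It was 4.41 and 4.66 in 93-11 HS and 6.11 and 6.67 in 93-11 Normal, so depth times fragment length was lower in both HS libraries and cannot be told apart from the condition. The exact permutation test of 2 against 2 libraries gives p = 0.33 at best, and it gave this value for every measure whose groups did not overlap, that is, with both HS libraries above or both below the 2 Normal libraries. Differences of single measures were therefore read against the spread between replicates.

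Peaks were sparser under HS along the whole length of the chromosomes, and most of all near the chromosome ends. Over the 388 Mb spanned by the lists, density was 64.3 and 58.5 peaks per Mb in 93-11 HS, against 81.4 and 79.0 in 93-11 Normal. Each chromosome was divided into 10 bins of equal length and folded about its middle into 5 position classes. The mean number of peaks differed by -27.5% in the outermost class and by -19.9% in the innermost one. The outermost class held 21.1% and 21.6% of the HS lists, against 22.3% and 22.8% of the Normal lists, and the innermost class 17.7% and 17.1%, against 16.8% and 16.5%. The groups did not overlap in either share. The 3 classes between them differed by -23.3% to -22.6% in number. Counting only peaks of at least 4 times the background, density was 30.5 and 28.7 per Mb in HS and 30.8 and 28.6 in Normal, and the groups overlapped. The innermost share was 16.5% and 16.4% in HS, against 14.7% and 14.4% in Normal, for the 20000 strongest peaks per list, without overlap. It was 13.4% and 12.6% in HS and 13.05% and 12.7% in Normal for the 10000 strongest, with overlap.

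The difference at the ends sat within the last 2 Mb. Within 1 Mb of a chromosome end lay 1596 and 1447 HS peaks, against 2261 and 2206 Normal peaks. These made up 6.40% and 6.38% of the HS lists, against 7.16% and 7.20% of the Normal lists. The mean shares differed by -0.79 percentage points, with an SD between replicates of 0.0144 in HS and 0.0304 in Normal (n = 2 each). Between 1 and 2 Mb the share was 6.74% and 6.86% in HS and 7.10% and 7.23% in Normal, again without overlap. Between 2 and 3 Mb it was 6.43% and 6.65% in HS and 6.42% and 6.66% in Normal, and the groups overlapped. Peak number differed by -31.9% in the first of these zones and by -27.4% in the second. It differed by -23.5% to -22.1% in every zone further in. The zones near the ends were chosen after the window values had been seen. In the 20000 and the 10000 strongest peaks per list, and in peaks of at least 4 times the background, the difference in the share within 1 Mb of an end lay between -1.04 and -0.43 percentage points.

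**Figure D1:**
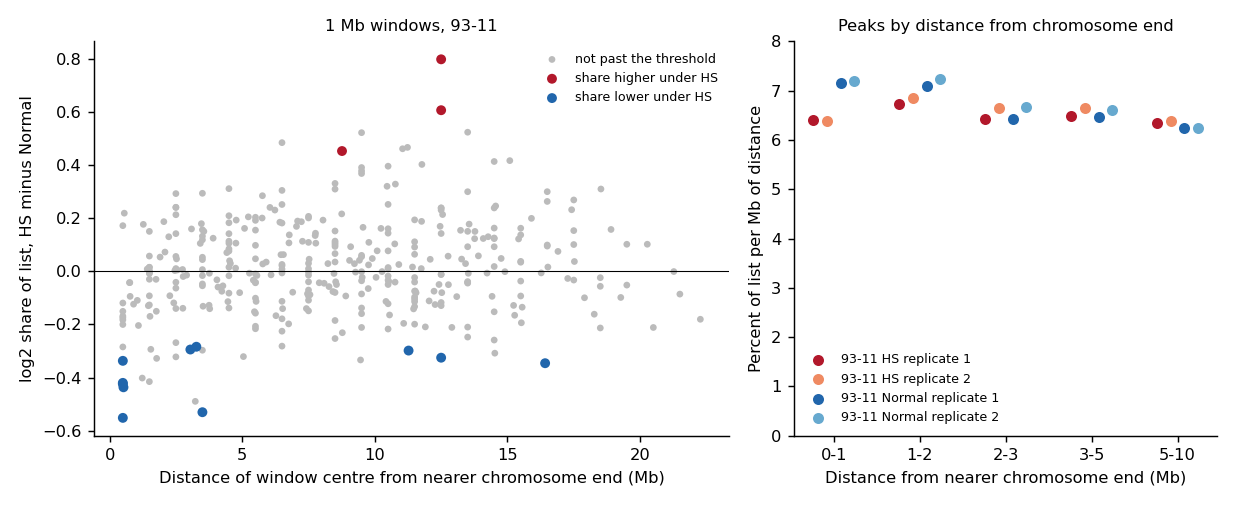
The left panel plots 382 windows of 1 Mb by the distance of their centre from the nearer chromosome end (Mb) and by the log2 share of the list, 93-11 HS minus 93-11 Normal, with windows past the limma threshold in red (higher) and blue (lower). The right panel plots the percent of each list per Mb of distance for the 4 libraries; within 1 Mb of an end the HS lists lie at 6.40% and 6.38%, below the Normal lists at 7.16% and 7.20%, and from 2 to 3 Mb the groups overlap.

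Windows of 1 Mb hold the same peaks, and their values were seen before the zones near the ends were chosen. They are therefore not a separate test of those zones. In 323 of 382 windows (84.6%) both HS lists held fewer peaks than both Normal lists, and in 1 window (0.262%) both held more. To set the length of the lists aside, the share of the list that fell in each window was tested with limma. At a Benjamini-Hochberg adjusted p of 0.05, the share was higher in 3 windows (0.785% of those tested) and lower in 11 (2.88%). The shares did not overlap, HS higher, in 85 windows (22.3%) and, HS lower, in 89 (23.3%). If the order of the libraries in a window were random, 16.7% of windows would lie on each side without overlap. Of the 24 windows that were the first or last whole window of a chromosome, the share passed as lower in 5 (20.8%) and as higher in none of the 24. A last whole window can stop up to 1 Mb short of the last peak end of its chromosome. In 18 of them (75%) both HS shares lay below both Normal shares. These 24 windows held 1622 and 1509 HS peaks, against 2312 and 2259 Normal peaks, a difference of -31.5%. The 70 inner windows among the most densely filled ones differed by -23.7%, close to the -22.7% of all 358 inner windows. The calls rest on all 4 libraries together: without HS replicate 1 the call remained in 1 window, and without HS replicate 2, Normal replicate 1 or Normal replicate 2 it was made in 0 of 382 windows, with 33 to 70 windows at an unadjusted limma p below 0.05. The calls also ended in windows of 2 Mb, with 28 of 188 at an unadjusted limma p below 0.05, and for the 20000 strongest peaks per list, with 108 of 382.

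The largest fall of share was at the start of chromosome 3. The window chr3:1-1000000 held 55 and 48 HS peaks, against 102 and 96 Normal peaks, and its log2 share differed by -0.55 ± 0.11 (SE, limma adjusted p = 0.00015). The window at the other end of the same chromosome, chr3:38000001-39000000, held 65 and 59 HS peaks, against 110 in each Normal list. Its log2 share differed by -0.44 ± 0.093 (SE, limma adjusted p = 0.00059). The groups were far apart in number at both ends of the chromosome. Counting only peaks of at least 4 times the background, the differences were -0.26 at the start (limma adjusted p = 0.214) and -0.17 at the end (limma adjusted p = 0.378), neither past the threshold. An inner window, chr6:3000001-4000000, held 49 peaks in each HS list, against 93 in each Normal list, with a log2 share difference of -0.53 ± 0.11 (SE, limma adjusted p = 0.00059). The first windows of chromosomes 11, 5 and 2 were also among the 11, with log2 share differences of -0.42, -0.42 and -0.34.

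The 3 windows of higher share all lay away from the chromosome ends. The window chr8:12000001-13000000 held 41 and 33 HS peaks, against 33 and 23 Normal peaks, and its log2 share differed by 0.80 ± 0.24 (SE, limma adjusted p = 0.0336). The window chr10:12000001-13000000 held 59 and 44 HS peaks, against 49 and 39 Normal peaks, with a log2 share difference of 0.61 ± 0.17 (SE, limma adjusted p = 0.0238). In both windows the mean number of peaks was also higher in HS, but the numbers of single libraries met or overlapped between the groups. At 4 times the background the chromosome 10 difference was 0.32 (limma adjusted p = 0.466). The window chr7:21000001-22000000 held 66 and 69 HS peaks, against 63 and 66 Normal peaks, so its numbers were level although the Normal lists were longer. Its log2 share differed by 0.45 ± 0.12 (SE, limma adjusted p = 0.0107).

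The difference in number was smaller in sparse windows than in dense ones. The 77 windows with the lowest mean number, 32.25 to 54 peaks, held 14.0% and 13.04% of the HS lists, against 12.7% and 12.4% of the Normal lists, and differed by -17.4% in number. The 76 windows of 74 to 89 peaks differed by -26.1%, and the 77 densest windows by -24.0%, beside -23.4% over all windows. In the densest windows the shares overlapped, at 27.1% and 28.4% in HS and 27.9% in each Normal list. Windows were sorted by the mean of the same numbers of peaks, so the sorting is not independent of the difference. Chromosome 10, at -18.5%, and chromosome 3, at -26.9%, were the extremes among chromosomes. Chromosome 10 had the highest number of windows in which both HS shares exceeded both Normal shares in proportion to its length, 12 of 25 (48%), beside 22.3% over all windows. On chromosome 3 this held in 2 of 39 windows (5.13%).

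The difference in peak number was graded by width. Peaks of 1000 bp and more numbered 95 and 104 in 93-11 HS, against 266 and 324 in 93-11 Normal, a difference of -66.3%. Peaks of 500 to under 1000 bp numbered 2103 and 2000, against 4235 and 4635 in Normal (-53.7%), and those of 300 to under 500 bp 5896 and 5674, against 8602 and 8541 (-32.5%). The classes from 200 to under 300 bp and under 200 bp differed by -16.9% and -5.38%. Peaks under 200 bp were therefore nearly as numerous in HS as in Normal, at 9487 and 8274 against 9854 and 8916, and the number of the widest peaks was the one that differed most. As shares, peaks under 200 bp made up 38.0% and 36.5% of the HS lists, against 31.2% and 29.1% of the Normal lists. Peaks of 500 bp and more made up 8.81% and 9.28% of the HS lists, against 14.3% and 16.2% of the Normal lists. The shares did not overlap in any of the 5 classes.

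**Figure D2:**
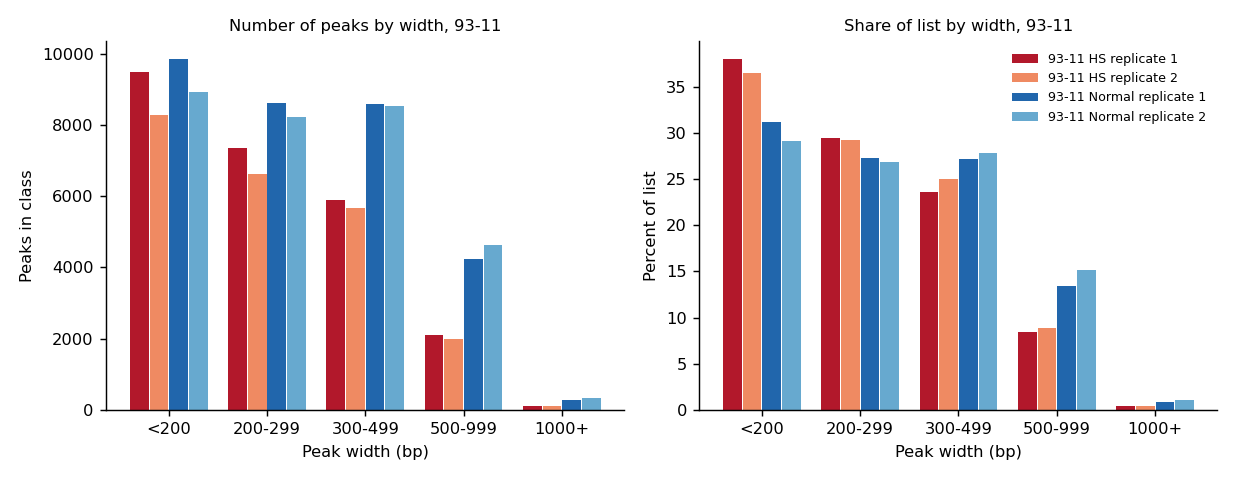
Number of peaks (left) and percent of the list (right) by peak width in bp, with 1 bar per library, the 2 93-11 HS libraries in red tones left of the 2 93-11 Normal libraries in blue tones. The HS bars are close to the Normal bars under 200 bp, with 9487 and 8274 against 9854 and 8916 peaks, and far below them from 500 to under 1000 bp, with 2103 and 2000 against 4235 and 4635.

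The shift to narrow peaks was also present among strong peaks. Within the 10000 strongest peaks of each list, 18.1% and 17.6% of the HS peaks were under 200 bp, against 7.61% and 6.72% of the Normal peaks. Of the same 10000, 18.0% and 17.9% of the HS peaks were 500 bp or wider, against 32.6% and 36.3% of the Normal peaks. Width followed strength in every list. Spearman's rho between width and −log10 p, over the peaks of a list, was 0.522 and 0.540 in HS and 0.594 and 0.598 in Normal. The median width in the top 10% of a list was 428.5 and 442 bp in HS, against 507 and 529 bp in Normal. In the bottom 10% it was 164 and 165 bp in HS, against 168 and 172 bp in Normal. In the middle 10% it was 227 and 226 bp in HS, against 258 and 265 bp in Normal. HS peaks were thus narrower in all 3 ranges of strength, by least in the weakest peaks, which lie close to the narrowest widths of the lists. The narrowest peak of a list measured 126 and 127 bp in HS and 128 and 130 bp in Normal. The part of depth and of fragment length in these widths was not tested.

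Each wide Normal peak was then looked up in the other lists, by overlap of at least 1 bp, and the widest peak found was recorded. Of the 4501 and 4959 Normal peaks of 500 bp and more, 21.7% to 23.0% met no peak in an HS list, against 5.65% to 5.93% in the other Normal list. A peak of 500 bp and more was met in 27.0% to 29.6% of cases in HS, against 57.1% to 62.9% in the other Normal list. One of 300 to under 500 bp was met in 27.7% to 28.6% in HS, against 22.2% to 26.3%, and one under 300 bp in 19.7% to 23.4%, against 8.91% to 10.9%. A second wide peak, the most frequent outcome between Normal replicates, was met in HS about as often as a peak of middle width. Where a peak was found, the median ratio of its width to that of the Normal peak was 0.63 to 0.68 in HS, against 0.87 to 0.92 in the other Normal list. Of the wide Normal peaks, 4.31% to 5.55% met 2 or more peaks in HS, against 3.62% to 5.38% in the other Normal list, and these ranges overlap. Of those that met any peak, it was 5.60% to 7.08% in HS, against 3.85% to 5.71%, also with overlap. In the top 10% of a Normal list, 2.09% to 3.04% met 2 or more peaks in HS. In the other Normal list 0.76% to 1.31% of them did, without overlap.

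**Figure D3:**
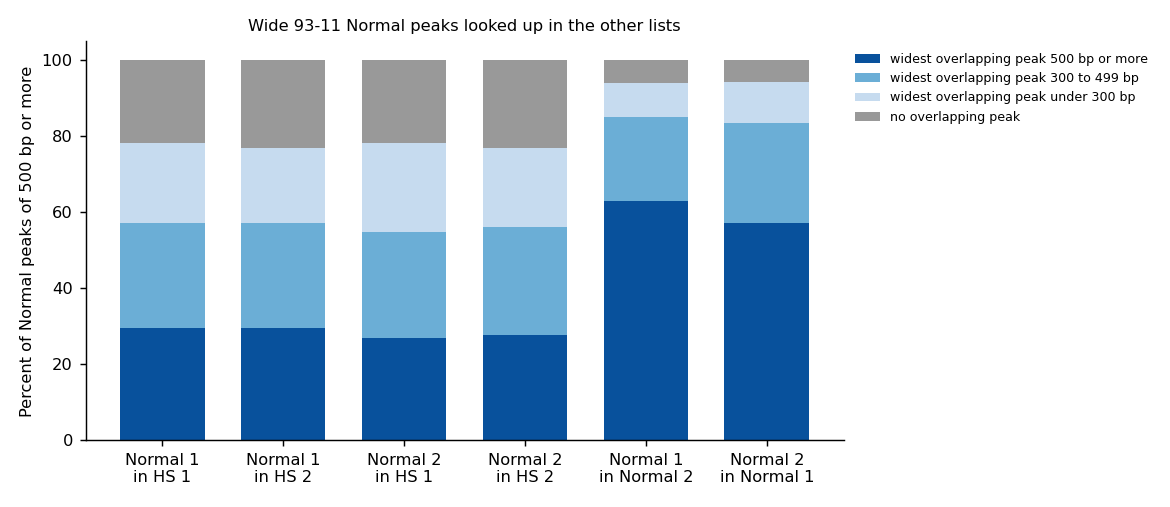
Percent of 93-11 Normal peaks of 500 bp and more by what overlaps them in another list, with 1 stacked bar per pair of lists, the 4 look-ups in 93-11 HS left of the 2 in the other 93-11 Normal list. No overlapping peak (grey) was found for 21.7% to 23.0% in HS, against 5.65% to 5.93% between Normal replicates, and a peak of 500 bp and more (dark blue) for 27.0% to 29.6%, against 57.1% to 62.9%.

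The reverse look-up started from the 2198 and 2104 HS peaks of 500 bp and more. Of these, 9.79% to 12.2% met no peak in a Normal list, against 6.42% to 8.78% in the other HS list. A peak of 500 bp and more was met by 60.6% to 65.1% in a Normal list, against 53.6% to 55.9% in the other HS list. Wide HS peaks therefore mostly lay where Normal had a wide peak as well. At the other extreme, 77.6% to 79.1% of Normal peaks under 200 bp met no HS peak, but 62.9% to 63.5% of them met none in the other Normal list either. Of HS peaks under 200 bp, 57.0% to 60.8% met no peak in a Normal list, against 63.1% to 67.2% in the other HS list. Strong peaks were nearly always found again. Of the top 10% of a Normal list, 2.81% to 3.20% met no peak in an HS list, where at most 2 peaks met none in the other Normal list. Of the top 10% of an HS list, 0.838% to 1.36% met none in a Normal list, against 0.309% to 0.401% in the other HS list.

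Neighbouring peaks lay further apart under HS. The median gap from the end of a peak to the start of the next was 9.56 and 10.1 kb in 93-11 HS, against 7.09 and 7.27 kb in 93-11 Normal. Gaps of 1 to under 5 kb made up 19.7% of each HS list, against 25.8% and 25.02% of the Normal lists, and their number differed by -40.6%, the largest decrease of any class. Gaps of 20 to under 100 kb made up 25.1% and 27.5% in HS, against 17.6% and 17.8% in Normal. Gaps of 100 kb and more numbered 124 and 191 in HS and 90 and 110 in Normal. The HS lists thus had fewer gaps of a few kb and more long empty stretches. Over the same span, fewer peaks leave longer gaps, so these values are not separate from the lower peak number. Gaps under 500 bp differed least in share, at 5.84% and 5.51% in HS and 5.98% and 5.79% in Normal, and there the groups overlapped.

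Close pairs of peaks behaved differently from the rest of the spacing. Among all peaks, gaps under 1 kb made up 10.5% and 10.3% in HS, against 12.0% and 11.8% in Normal. In the 20000 strongest peaks per list the order turned round, with 8.91% and 9.06% in HS, against 7.33% and 7.45% in Normal. Among the 10000 strongest it was 5.86% and 5.58% in HS, against 3.97% and 3.75% in Normal, and among peaks of at least 4 times the background 6.19% and 5.82%, against 4.53% and 4.02%. The groups did not overlap under any of these 4 choices, but the direction depended on whether weak peaks were counted. The median gap itself was 11.5 and 11.4 kb in HS, against 10.4 and 10.2 kb in Normal, among the 20000 strongest peaks, without overlap. It was level among the 10000 strongest peaks, at 19.1 and 18.5 kb in HS and 18.99 and 18.8 kb in Normal.

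**Figure D4:**
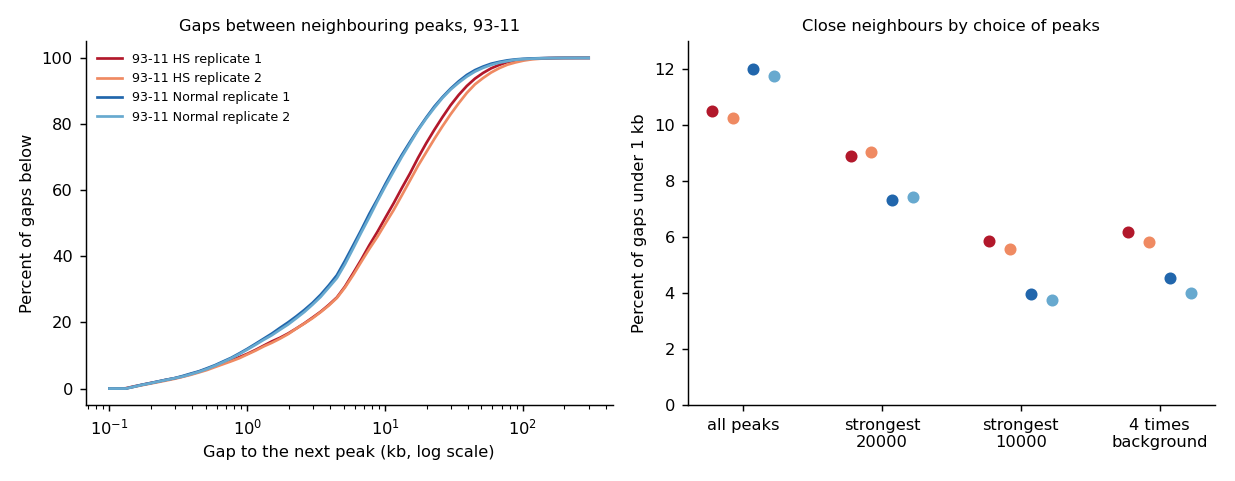
Left, the percent of gaps between neighbouring peaks that fall below the length on the x axis (kb, log scale) in the 4 libraries; the 2 HS curves (red tones) lie right of the 2 Normal curves (blue tones), with medians of 9.56 and 10.1 kb against 7.09 and 7.27 kb. Right, the percent of gaps under 1 kb in the same libraries and colours for 4 choices of peaks; HS is lower among all peaks and higher among the strongest 20000, the strongest 10000 and peaks of at least 4 times the background.

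Isolated peaks were more frequent in HS, which is likewise not separate from the lower peak number. Peaks whose nearest neighbour lay 20 to under 100 kb away numbered 1857 and 2094 in HS, against 1282 and 1326 in Normal, and were the sole class of neighbour distance with more peaks in HS. They were weak in both conditions, with median ranks at percentile 40.8 and 40.9 of the HS lists and 37.6 and 35.1 of the Normal lists. A percentile of 100 is the strongest peak of a list. Position and strength were also linked. The median peak of the outermost position class stood at percentile 58.2 and 58.0 in HS, against 56.2 and 55.7 in Normal, and that of the innermost class at 40.5 and 40.1, against 41.2 and 42.1. In the bottom 10% of the list, 22.7% and 21.9% of HS peaks lay in the innermost class, against 19.8% and 19.5% of Normal peaks. In the top 10% this was 11.3% and 11.2% in HS, against 12.8% and 12.6% in Normal. The groups did not overlap in these values, which are percentiles of lists of different length.

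For the strength of individual sites, touching or overlapping peaks of the 4 lists were merged, and the 9503 merged regions with a peak in every list are called shared sites. They are 17.1% of 55565 regions, and 90.5% of them held exactly 1 peak from each list. Each site was ranked within each list among the shared sites. Spearman's rho over the 9503 sites was 0.776 between HS replicates, 0.885 between Normal replicates and 0.665 to 0.673 across conditions. The median difference in rank of a site was 11.0 points between HS replicates, 7.86 points between Normal replicates and 13.4 to 13.5 points across conditions. The order of sites thus differed more across conditions than between replicates, and the HS replicates differed more from each other than the Normal replicates did.

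**Figure D5:**
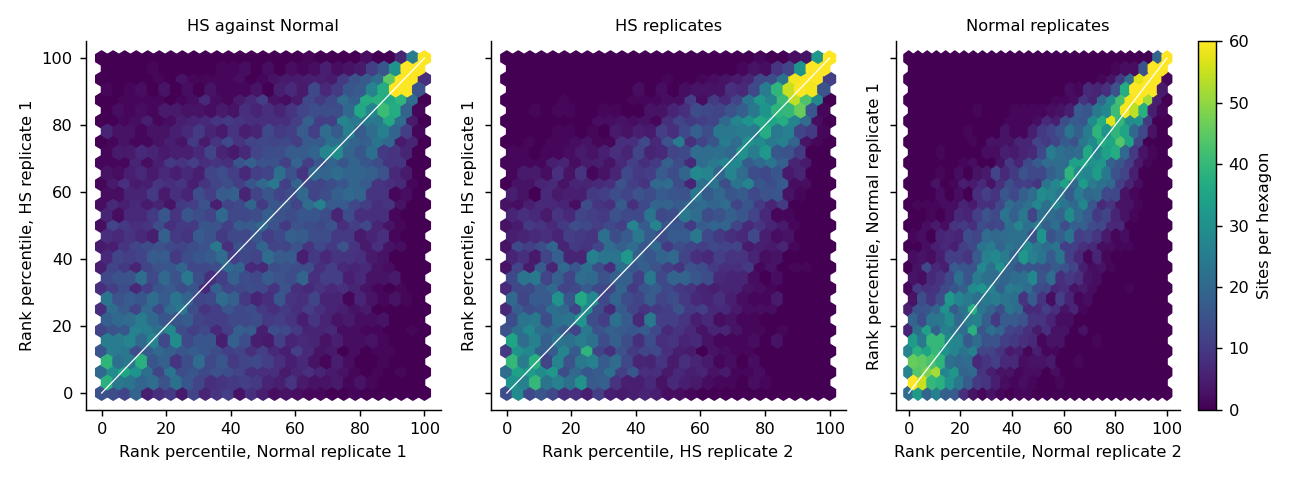
Rank percentile of the 9503 shared sites in a pair of lists, 93-11 HS replicate 1 against 93-11 Normal replicate 1 (left), the 2 HS replicates (middle) and the 2 Normal replicates (right); colour is the number of sites per hexagon and the white line marks equal rank. The cloud is widest across conditions and narrowest between Normal replicates, with median absolute differences of 13.5, 11.0 and 7.86 points, and all 3 panels narrow towards the strongest sites.

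The strongest sites were largely the same ones in all lists. Of the 95 sites in the top 1% of a list, 61 to 66 were also in the top 1% across conditions, 66 between HS replicates and 70 between Normal replicates. Of the 950 sites in the top 10%, 643 to 656 were shared across conditions, 701 between HS replicates and 767 between Normal replicates. The strongest site of every list was chr11:5349731-5350399, with a −log10 p of 10072 and 10212 in HS and 8033 and 8535 in Normal. It was also stable in width, at 660 and 653 bp in HS and 654 and 669 bp in Normal. The sites in places 2 to 4 were the same in all 4 lists too, chr4:13839096-13840233, chr5:14612975-14613599 and chr5:14597018-14597538. The chromosome 4 site had a −log10 p of 2249 and 2200 in HS and 1882 and 1970 in Normal. The strongest site thus stood far above all other shared sites, and the reason was not tested.

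No shared site passed the test of a changed rank. With limma on normal scores of the ranks, 0 of 9503 sites reached a Benjamini-Hochberg adjusted p of 0.05 in either direction (0%), and the lowest adjusted p was 0.11. At an unadjusted limma p below 0.05 were 1874 sites, 988 with a higher and 886 with a lower rank in HS. Quantile-normalised log2 values in place of ranks gave 217 calls. Leaving out HS replicate 1 gave 231 and leaving out HS replicate 2 gave 340, with the lone HS library taken to vary like the Normal libraries. Leaving out either Normal replicate gave 0.

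By position of the ranks alone, both HS ranks lay above both Normal ranks at 2444 sites (25.7%) and below both at 2491 (26.2%). The shift was also at least 20 points at 1270 sites (13.4%) in the upward and 1292 (13.6%) in the downward direction. Shifts in both directions were nearly equal in number, and classes of sites departed from these background shares to different degrees. On chromosome 12, HS was higher at 19.8% and lower at 30.0% of 414 sites, and on chromosome 3 higher at 28.4% and lower at 25.4% of 1299 sites. Among the 76 sites with a mean width of 1000 bp and more, HS was higher at 42.1% and lower at 19.7%. Among the 1901 sites of lowest mean rank, HS was higher at 26.4% and lower at 18.0%, and this class was formed from the same ranks. The 689 sites within 1 Mb of a chromosome end, where peak number differed most, had shares near those of all sites. HS was higher at 22.9% of them and lower at 25.8%. The same held for the 334 sites in the 11 windows of lower share, at 22.2% and 23.4%. Rank shifts of neighbouring shared sites were almost unrelated, with r = 0.13 over 428 pairs less than 1 kb apart and 0.050 over 1223 pairs 1 to 5 kb apart. These are descriptions over sites that share their libraries. If the order of the libraries at a site were random, 16.7% of sites would lie on each side without overlap.

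Sites found in every list were narrower in HS. The median width at shared sites was 315 and 319 bp in HS, against 402 and 419 bp in Normal, and the median log2 ratio of HS to Normal width was -0.31. At 4509 sites (47.4%) both HS peaks were narrower than both Normal peaks, and at 832 (8.76%) both were wider. Rank and width moved together to a degree. At sites with both HS ranks above both Normal ranks the median width was 367 and 371 bp in HS, against 359 and 361.5 bp in Normal. The median log2 ratio there was -0.0028, against -0.56 at sites with both HS ranks below both Normal ranks and -0.33 at sites whose ranks overlapped. Sites ranked lower in HS were thus also the ones with the narrowest HS peaks relative to Normal. Where the rank shifted by less than 5 points, at 2535 sites, the median log2 ratio was -0.27, so narrower HS peaks were also measured where rank was nearly level. Sites of 300 to under 500 bp had the lowest median log2 ratio of any width class, -0.35, and those of 1000 bp and more the one nearest 0, -0.13.

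The sites with the smallest p in each direction are given as values, since none passed the test (limma adjusted p = 0.11 for each of the 10). At chr5:22725231-22725682 the −log10 p was 17.8 and 19.7 in HS, against 4.64 and 5.57 in Normal. Its rank percentile among shared sites was 79.2 and 81.7 in HS, against 3.11 and 7.37 in Normal, and its width 332 and 452 bp, against 159 and 282 bp. A weak, narrow Normal peak thus stood among the stronger shared sites in both HS lists. At chr1:40135888-40136376 the −log10 p was 24.2 and 21.4 in HS, against 6.31 and 6.22 in Normal, at percentiles 89.1 and 84.6, against 12.5 and 11.7. The site chr7:21336440-21337000, in the chromosome 7 window of higher share, had a −log10 p of 16.2 and 17.9 in HS, against 5.61 and 5.08 in Normal. The other sites of this direction were chr3:7656333-7657707, where HS replicate 2 held a peak of 1271 bp against 151 and 343 bp in Normal, and chr1:30555748-30556442. All 5 were wider in HS than in Normal in both replicates.

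In the other direction, chr5:15849021-15849821 had a −log10 p of 4.80 and 6.30 in HS, against 43.7 and 45.3 in Normal. Its percentile was 5.33 and 15.8 in HS, against 91.8 and 92.0 in Normal, and its width 172 and 246 bp, against 801 and 581 bp. This was the largest downward shift of the 9503 shared sites, at -81.4 percentile points. At chr11:14489102-14489926 the −log10 p was 7.50 and 6.60 in HS, against 44.5 and 47.7 in Normal, and the width 304 and 409 bp, against 749 and 752 bp. At chr2:26431945-26432917 the −log10 p was 3.63 and 4.28 in HS, against 18.6 and 17.0 in Normal. The chromosome 2 site stood at percentiles 62.1 and 57.0 in Normal, so it was of middle strength among shared sites there. Each of these sites was weaker and narrower in both HS lists than in both Normal lists. The remaining ones were chr7:17425232-17426173 and chr3:32417099-32417604, and all 5 were narrower in both HS libraries than in both Normal libraries. Positions are on the sequences named in the 93-11 lists, whose build was not stated, and no gene annotation of that sequence was used here.

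Nip served to see where the 93-11 pattern differed. On the log2 scale, HS over Normal was 0.45 in 93-11 and -0.33 in Nip for the median gap, and 0.31 in 93-11 and -0.68 in Nip for the share of peaks under 200 bp. It was -0.19 in 93-11 and 0.18 in Nip for gaps under 1 kb, and 0.065 in 93-11 and -0.082 in Nip for the share in the innermost position class. Each of these 4 differences between cultivars was the largest that any of the 36 assignments of conditions within cultivars gave (two-sided exact permutation p = 0.056, which is the lowest this test allows, and 0.056 after adjustment over the 4). In Nip the peaks under 200 bp made up 9.42% under HS and 15.1% under Normal, whereas in 93-11 they made up 37.3% and 30.2%. The narrowest peak measured 163 bp in both Nip HS lists, 150 and 154 bp in Nip Normal and 126 to 130 bp in 93-11. The class under 200 bp thus covered a different range of widths in each group, and the part of this in the difference was not tested. The difference in gaps under 1 kb took the opposite sign among the 20000 strongest peaks, at 0.45. The difference in median gap, 0.78 over all peaks, was 0.43 at 4 times the background, 0.22 for the 20000 strongest and 0.068 for the 10000 strongest peaks (exact permutation p = 0.222 for the last).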

How the data were processed

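Positions and 1 value per peak were taken from the 8 deposited peak lists, 1 per library, with no header. The titles gave group and replicate number. As the methods describe, the authors used Cutadapt for trimming and Bowtie2 for mapping, discarded reads with mapping quality under 30, improper pairs, organelle reads and duplicates, and ran MACS2 for narrow peaks (adjusted p-value of 0.05). The submitters' processing notes name BWA 0.7.10-r789, SAMtools 0.1.19, deepTools 2.0 and MACS2 2.1.1, so the mapper differs between the 2 sources. The genome build, any shift for the Tn5 offset and the control are not given in the sources used here. The value deposited by the authors was read as a −log10 p from its distribution, since the most frequent values match Poisson tail probabilities at whole pileups. The background rate is the rate that best matched the 12 most frequent values. The fold over background is the pileup implied by the value divided by that rate.

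Chromosome spans ran from base 1 to the last peak end of the 4 lists. Windows of 1 Mb with a mean of at least 10 peaks (382 of 382) were tested with limma 3.58.1 with trend in R 4.3.3 on the log2 share of the list (0.5 added to each number of peaks), and shared sites with limma on normal scores of ranks. Single measures were compared by exact permutation in Python 3.11.15. No filter on low values removed a peak of the 12 chromosomes. The 2 libraries per group limit the precision. The limma p-values rest on a spread between replicates that is moderated across all windows or all sites. The exact permutation p-values count assignments of the libraries and do not measure that spread. The windows named are the 3 with the largest rise and the 3 with the largest fall past the threshold, and the sites named are the 5 in each direction with the smallest p and ranks that do not overlap, since none passed. Other windows and sites were named after their values had been seen. The members, classes and tests were chosen with earlier results of these data known. Alternatives were other choices of peaks, windows, ranks and overlap, each replicate left out in turn, and a replicate block. The limma fits for windows and sites were tested on simulated data. Coordinates count from 1.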

Additional observations from a re-analysis of the deposited data

Results flagged for a closer look

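Several changes with HS ran in opposite directions in the 2 cultivars, with both HS libraries above both Normal libraries in one cultivar and below them in the other. With HS over Normal taken on the log2 scale, 93-11 minus Nip gave 0.78 for the median gap between neighbouring peaks. It was -0.37 for the share of gaps under 1 kb, 0.99 for the share of peaks under 200 bp and 0.15 for the share of peaks in the innermost position class. Each was matched or exceeded by 2 of 36 assignments of the conditions (exact permutation p = 0.056, the smallest possible). The background rate and the width of the narrowest peak moved in opposite directions in the cultivars as well, and their part in these differences was not tested.

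Peaks on sequences outside the 12 chromosomes entered no comparison. There were 458 and 420 of them in the 93-11 HS lists, against 473 and 450 in the 93-11 Normal lists, which is 1.80% and 1.82% of the peaks of the HS lists and 1.48% and 1.45% of those of the Normal lists.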

How the results depend on the processing

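Among the recomputed values of the main measures, 7 turned round, and 8 counts were lower and 3 higher by over 1.5 times. With 2 libraries per group the exact tests cannot pass 0.05, so a value that kept its direction says nothing of a call. The difference in median gap, 2.64 kb over all peaks, was -0.056 kb among the 10000 strongest peaks. The difference in the share of gaps under 1 kb, -1.50 percentage points, turned to 1.74 at 4 times the background, 1.59 among the 20000 strongest and 1.85 among the 10000 strongest peaks. The cultivar difference in that share turned to 0.36, 0.45 and 1.03 on the log2 scale under the same choices. Peak density could not be compared among equal numbers of strongest peaks, which fix it, and at 4 times the background it differed by -0.098 peaks per Mb, with overlap of the groups. The 14 windows called by limma became 2 without the trend, 0 in windows of 2 Mb and 0 among the 20000 strongest peaks, and 0 to 1 when a replicate was left out. With no filter the same 14 were called. Windows of 0.5 Mb gave 15 calls of 770, and peaks of at least 4 times the background gave 12 of 358, of which 3 were among the 14. Shared sites with a changed rank numbered 217 with quantile-normalised log2 values and 0 to 340 when a replicate was left out, against 0. The cause of these changes was not tested.

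The labels do not say that equal replicate numbers mark a shared batch. The difference between replicates 1 and 2 in HS correlated with that in Normal at -0.0039 over shared sites and 0.16 over windows. With a replicate block 0 windows and 0 sites were called, so no window call remained. The exact tests of single measures cannot pass with or without the block, so there was no other call for it to change. Values tied to depth are limited by the background rates, which differed by -29.1% in 93-11.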
